A study of Mus musculus with 6 samples.

Results

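The genes described here are 44 mouse nuclear receptors, the transcription factors that bind DNA and, in most cases, a small lipid-soluble ligand. They were taken from the liver count table by gene symbol, and all 44 were among its 24421 rows. Liver RNA of male C57BL/6 mice aged 4 months had been sequenced in 3 Sesn3 knockout (KO) and 3 wild-type (WT) samples. Sesn3 encodes sestrin 3, a stress-inducible protein that acts on nutrient-sensing kinases. Mice of both genotypes were fed for 4 weeks a diet with 40% of its kilocalories from fat, 40% from carbohydrate and 20% from protein, to which cholesterol (1.25%) and the bile salt sodium cholate (0.5%) were added, so every difference below is between genotypes on that diet. The labels do not say how the Sesn3 gene was altered, in which cells, or how many founder lines were used.

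Nuclear receptors share a DNA-binding domain that reads a short half-site and a ligand-binding domain that trades corepressor for coactivator proteins when a ligand is bound. In liver they sense fatty acids, bile acids, oxysterols, xenobiotics, thyroid hormone, glucocorticoids and heme, and they set the expression of enzymes that make or clear many of the same molecules. Many of them bind DNA as a pair with a retinoid X receptor (RXR), while steroid receptors pair with themselves and several orphan receptors bind as single molecules. Cholate is a bile acid and cholesterol is the precursor of oxysterols and bile acids, so the diet given to both groups supplies ligands or ligand precursors for members of the family.

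To show which DNA words receptor genes themselves carry at their starts, 7 promoter sequences are given below. They are those of Ppara, and promoters holding a searched word of both receptors that fell, of Nr1i3 and Rxra, whose libraries separated by genotype, and of Nr0b2, whose promoter holds 3 matches; since 6 of the 7 were picked for their words, they are no sample of the family. The RefSeq promoter table (GRCm38.p6) held an entry for 40 of the 44 genes, 61 promoters in all, each running from 250 bases before to 50 bases after a transcription start. The search covered 3 words on both strands: the nuclear receptor half-site AGGTCA, the core TCAAGG of the extended half-site read by receptors that bind as single molecules, such as NR5A2 and the estrogen-related receptors, and the E-box CACGTG read by the clock proteins CLOCK and BMAL1. Capitals mark these words and positions count from 0 at the start site.

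Thrb, chr14:17660710-17661009, plus strand: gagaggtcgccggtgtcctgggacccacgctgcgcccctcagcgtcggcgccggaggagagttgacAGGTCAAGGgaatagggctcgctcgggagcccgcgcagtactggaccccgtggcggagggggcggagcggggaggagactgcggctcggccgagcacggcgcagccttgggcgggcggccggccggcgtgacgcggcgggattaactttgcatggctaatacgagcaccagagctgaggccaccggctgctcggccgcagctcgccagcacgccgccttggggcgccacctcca
Thrb, chr14:17981394-17981693, plus strand: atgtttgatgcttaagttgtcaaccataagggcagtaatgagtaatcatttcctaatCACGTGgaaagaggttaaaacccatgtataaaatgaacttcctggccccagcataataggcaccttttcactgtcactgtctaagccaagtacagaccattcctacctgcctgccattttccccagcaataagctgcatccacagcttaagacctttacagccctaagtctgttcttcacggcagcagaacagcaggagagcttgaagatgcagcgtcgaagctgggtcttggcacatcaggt
Esrrg, chr1:187651991-187652290, plus strand: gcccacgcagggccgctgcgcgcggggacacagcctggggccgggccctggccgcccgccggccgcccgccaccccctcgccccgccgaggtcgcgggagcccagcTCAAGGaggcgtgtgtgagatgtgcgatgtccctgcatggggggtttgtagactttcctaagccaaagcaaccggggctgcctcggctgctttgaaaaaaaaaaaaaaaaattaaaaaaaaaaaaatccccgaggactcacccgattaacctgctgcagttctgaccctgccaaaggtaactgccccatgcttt
Nr0b2, chr4:133553126-133553425, plus strand: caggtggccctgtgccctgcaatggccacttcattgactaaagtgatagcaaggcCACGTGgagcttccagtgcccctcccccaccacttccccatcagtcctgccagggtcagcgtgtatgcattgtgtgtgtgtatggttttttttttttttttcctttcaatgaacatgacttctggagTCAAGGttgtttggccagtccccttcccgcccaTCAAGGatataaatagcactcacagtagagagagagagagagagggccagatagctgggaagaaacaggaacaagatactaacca
Nr1i3, chr1:171213720-171214019, plus strand: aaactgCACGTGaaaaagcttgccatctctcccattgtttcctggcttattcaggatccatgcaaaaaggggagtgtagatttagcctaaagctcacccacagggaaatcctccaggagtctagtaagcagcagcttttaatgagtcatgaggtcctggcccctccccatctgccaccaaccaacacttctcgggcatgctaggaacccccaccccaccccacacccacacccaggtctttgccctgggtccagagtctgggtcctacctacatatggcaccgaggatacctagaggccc
Ppara, chr15:85735526-85735825, plus strand: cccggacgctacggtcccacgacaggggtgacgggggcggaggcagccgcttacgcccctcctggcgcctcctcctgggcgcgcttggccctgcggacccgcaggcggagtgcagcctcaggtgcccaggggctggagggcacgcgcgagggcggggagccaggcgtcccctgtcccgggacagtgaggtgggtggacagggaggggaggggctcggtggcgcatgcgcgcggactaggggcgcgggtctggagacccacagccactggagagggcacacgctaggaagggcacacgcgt
Rxra, chr2:27709042-27709341, plus strand: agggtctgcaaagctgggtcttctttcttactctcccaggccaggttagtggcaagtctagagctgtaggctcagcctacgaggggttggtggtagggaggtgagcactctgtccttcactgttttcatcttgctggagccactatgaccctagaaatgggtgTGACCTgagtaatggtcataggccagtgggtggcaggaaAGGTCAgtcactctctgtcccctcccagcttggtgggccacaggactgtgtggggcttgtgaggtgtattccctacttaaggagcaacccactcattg

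The Thrb promoter at chr14:17660710-17661009 held AGGTCA at position -184 and TCAAGG at -181, overlapping as a single run, and a further Thrb promoter held CACGTG at -193. Of 4 Esrrg promoters, the one printed held TCAAGG at -144, a further one (chr1:187997577-187997876) held it at 18 on the opposite strand, and the other two held none of the words. The promoter of Nr0b2 held TCAAGG at -68 and at -35 and CACGTG at -195, and that of Nr1i3 held CACGTG at -244. The Rxra promoter printed held AGGTCA at -48 and, on the opposite strand, at -87. The Ppara promoter and the other Rxra promoter held none of the words. Over 32851 promoters of the same length, AGGTCA was present in 16.3%, TCAAGG in 14.4% and CACGTG in 7.15%. Among the 61 receptor promoters the numbers were 12 (19.7%), 8 (13.1%) and 6 (9.84%). A match is a description of the sequence and was not tested for binding.

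The libraries held 18882220 to 24098512 counts each. Sesn3 itself had 18, 18 and 16 counts in the KO libraries and 172, 200 and 195 in the WT libraries, a log2 fold change (KO minus WT) of -3.84 with a standard error (SE) of 0.22 and an adjusted p of 0.00183. Adjusted p-values here are from edgeR's quasi-likelihood test with Benjamini-Hochberg adjustment over all 12945 genes tested, with a threshold of 0.05. They measure only the spread between these samples, because the labels say no more than that they are separate samples. Hepatocyte markers, led by Alb, Apoa1 and other plasma protein genes, summed to 88550 to 142256 CPM (counts scaled to a common library size) in every library, and 0 of 10 tested were called different (edgeR), with 5 at an unadjusted p under 0.05, all lower. The hepatocyte marker Ass1, a urea cycle gene, was counted at only 0.471 to 0.991 CPM in all 6 libraries. The annotation counted is not given, and whether this value is the level of Ass1 RNA in these livers was not tested. Summed markers of recruited macrophages were 469 to 480 CPM in KO and 60.0 to 195 CPM in WT, with 3 of 7 called higher. Of the 7, 5 had a positive and 2 a negative log2 fold change. Stellate cell markers were 864 to 1111 CPM in KO and 330 to 504 CPM in WT, with 3 of 11 called higher. Kupffer cell markers were 1733 to 2216 CPM in KO and 882 to 1676 CPM in WT, with 2 of 8 called higher. Of these 8, 5 had a positive and 3 a negative log2 fold change (median 0.34). At an unadjusted p under 0.05 (edgeR), 3 of them were higher and 1 lower. Sinusoidal endothelium markers were 198 to 448 CPM in KO and 394 to 528 CPM in WT; 9 of 10 had a negative log2 fold change (median -0.59), 0 were called (edgeR), and 3 were lower and 1 higher at an unadjusted p under 0.05. Of 5 erythroid markers, the globin genes Hba-a1, Hba-a2, Hbb-bs and Hbb-bt had 0 counts in every library. These genes have close copies, and how shared reads were counted is not given. The 0 counts therefore cannot be read as absence of globin RNA. The heme synthesis gene Alas2, the only 1 of the 5 tested, was called lower. It was at 31.0 to 46.4 CPM in KO and 108 to 253 CPM in WT. In bulk liver, fewer cells of a type and less RNA per cell cannot be told apart, and the part of these other cells in the receptor differences below was not tested. Summed over the 44 receptors, the level was 1974 to 2412 CPM in KO and 2502 to 3182 CPM in WT, with no overlap between groups; scaled by library size alone it was 2263 to 2536 CPM in KO and 2384 to 2723 CPM in WT, which overlap.

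Receptors of hepatocyte metabolism led the family. Per kilobase (kb) of exon, the WT mean was 120 ± 28.5 CPM per kb (SD, n = 3) for Hnf4a, the receptor that maintains the hepatocyte expression program, and 118 ± 23.7 for Rxra, the main RXR of liver. Ppara, the receptor for fatty acids, followed at 83.3 ± 0.861 CPM per kb, then Nr1h3, the oxysterol receptor LXR-alpha, at 55.2 ± 4.72. Hnf4a and Rxra did not differ beyond their spread, whereas the ranges of Rxra, Ppara and Nr1h3 did not overlap. Nr0b2, which encodes the corepressor SHP, at 37.7 ± 9.73 CPM per kb, the orphan repressor gene Nr2f6 at 36.7 ± 4.87 and the bile acid receptor gene Nr1h4 (FXR) at 35.5 ± 3.32 were not separable. Nr1i2 (PXR, 22.8), Nr1d1 (REV-ERB-alpha, 22.8) and Nr1d2 (REV-ERB-beta, 19.1 CPM per kb) completed the first 10. The order depends on the length used: with the length of the principal transcript, the constitutive androstane receptor gene Nr1i3 moved from rank 13 to 8, Nr5a2 from 15 to 10, and Rora from 20 to 11.

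**Figure D1:**
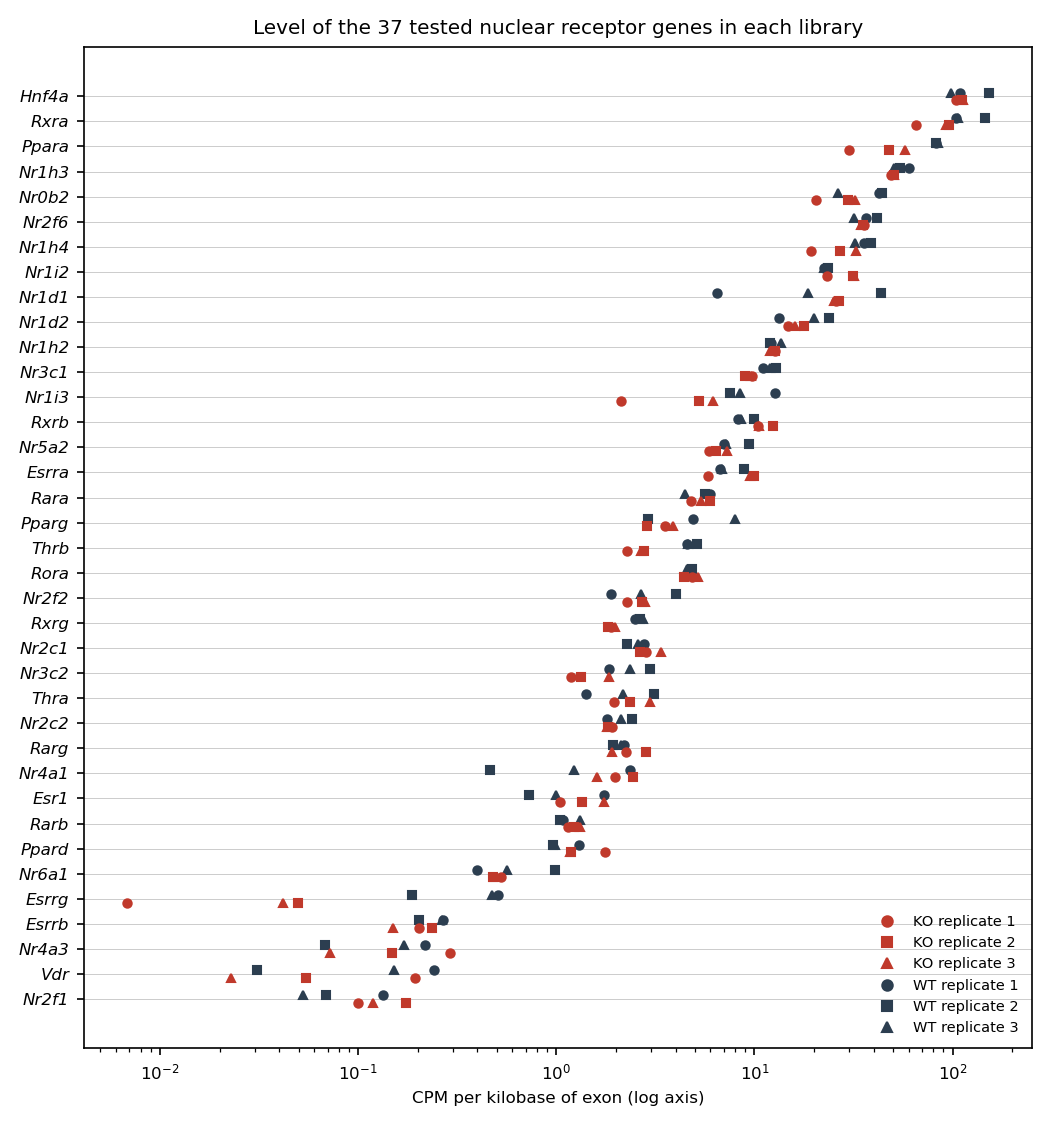
Level of the 37 tested nuclear receptor genes in each library, in CPM per kilobase of exon on a log axis, sorted by the WT mean. Red symbols are KO libraries and dark symbols WT libraries, with circles, squares and triangles for replicates 1, 2 and 3; Hnf4a and Rxra are at the top and Esrrg shows the widest gap between groups.

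At the other end, 7 receptors were too low to test. Nr0b1 (DAX1), Rorb, Pgr (progesterone receptor) and Nr5a1 (steroidogenic factor) had 0 counts in every library. Esr2, the beta form of the estrogen receptor, had 1 count in a single WT library, Hnf4g had 2 to 7 counts per library and Nr4a2 had 3 to 17. The remaining 37 were tested.

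Of these 37 receptors, 2 fell in KO liver and 0 rose. The 2 that fell were Thrb, the beta form of the thyroid hormone receptor, and Esrrg, the gamma form of the estrogen-related receptor. The share called lower was 5.41%, beside 3.58% of all genes tested; 3.36% of all genes were called higher, and 6.94% in either direction. At an unadjusted p under 0.05 the receptors numbered 2 higher and 7 lower (24.3% of 37, beside 25.8% of all genes). For 9 receptors every library of 1 genotype was above every library of the other (24.3%, beside 33.5% of all genes), 1 of them higher in KO (Rxrb; 16.9% of all genes) and 8 lower (Thrb, Esrrg, Ppara, Nr3c1, Nr1i3, Rxrg, Rxra and Nr1h3; 16.6% of all genes). The median log2 fold change was -0.14 over the 37 receptors and 0.00 over all genes.

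The count of receptors called higher was also 0 by DESeq2 and by limma-voom. Scaling by library size alone, which moves the median of all genes to 0.21, gave 2 receptors called higher (Rxrb and Nr1i2) and 2 lower, and a receptor median of 0.09. DESeq2 called 5 receptors lower. Without KO replicate 2 no receptor was called, and 1 was called without KO replicate 1, KO replicate 3 or WT replicate 3. For 22 of the 35 receptors not called, the approximate 95% interval of the log2 fold change lay within -1 and 1. On simulated counts for the same 12945 genes, the test recovered 6% of genes changed by 1.5-fold and 40% of those changed by 2-fold. It recovered 92% of those changed by 4-fold and 86% of those changed by 8-fold. Each rate rests on 50 genes drawn from all those tested, not on the receptors, and 6.67% of the calls were false. Most differences of 2-fold or less were thus not detectable with these libraries.

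**Figure D2:**
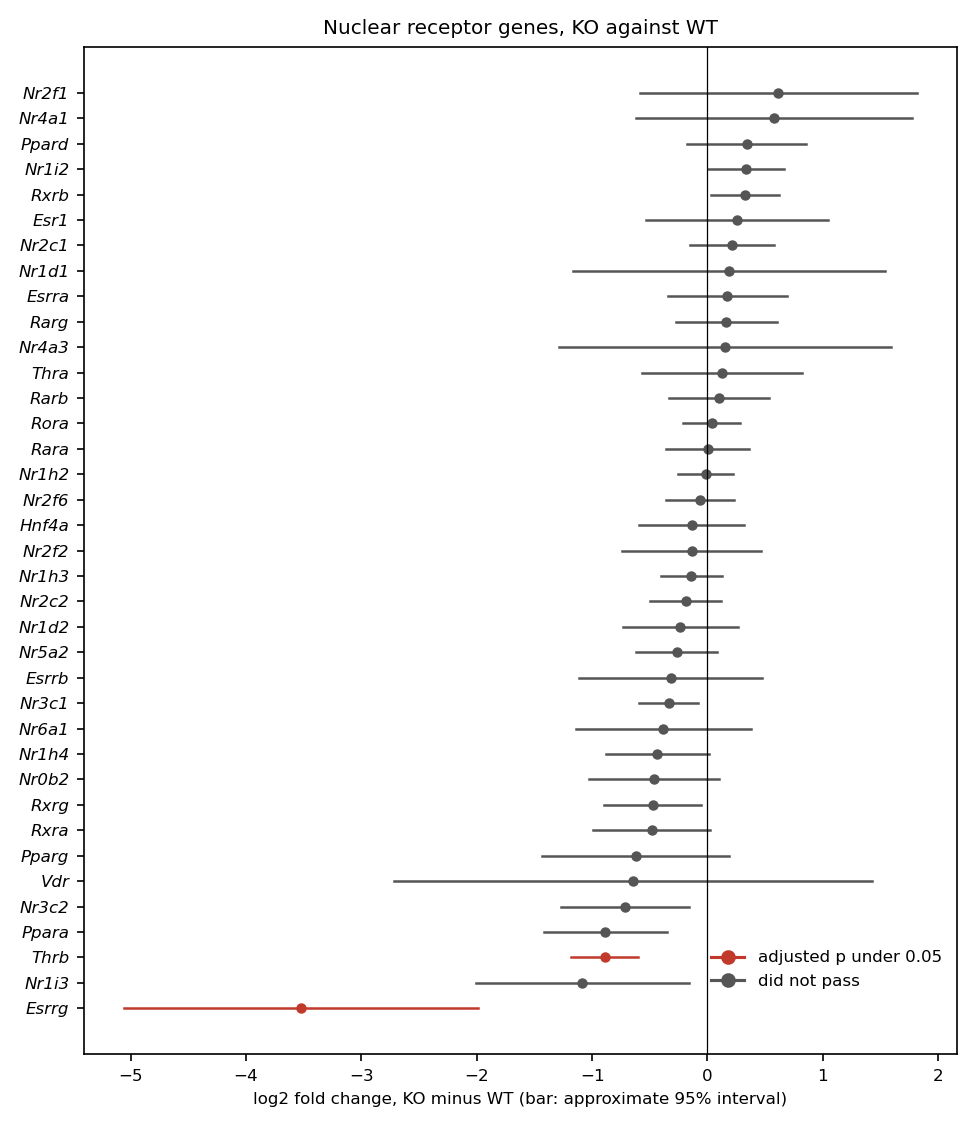
Log2 fold change (KO minus WT) of each of the 37 tested receptors, with its approximate 95% interval as a bar; red marks an adjusted p under 0.05. Thrb at -0.89 and Esrrg at -3.52 are the receptors in red, and the intervals of Vdr, Esrrg, Nr4a3 and Nr1d1 are the widest.

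Thyroid hormone receptors regulate lipogenic and cholesterol-handling genes in liver, where the beta form predominates. Thrb (chr14:17660261-18038090, plus strand) was at 16.8, 20.4 and 19.8 CPM in the KO libraries and 33.8, 37.9 and 34.2 CPM in the WT libraries. Every KO library was below every WT library, by a wide gap relative to the spread within either group. Thrb fell by 0.89 on the log2 scale (SE 0.12, adjusted p = 0.0113), or 1.86-fold, and stayed past the threshold in 13 of 14 alternatives. Without KO replicate 2 its adjusted p was 0.0586 at a log2 fold change of -0.95. Thra, the alpha form, was at 9.04, 10.8 and 13.7 CPM in KO and 6.54, 14.3 and 9.99 CPM in WT, which overlap (log2 fold change 0.13, SE 0.30, adjusted p = 0.821).

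The share of the beta form was lower in every KO library. Thrb made up 53.7%, 54.0% and 47.3% of thyroid hormone receptor CPM per kb in KO and 76.3%, 62.3% and 68.1% in WT. The shares did not overlap (means 51.7% ± 3.76 and 68.9% ± 7.04, SD, n = 3 each), with an exact two-sided permutation p of 0.10, the smallest that 3 against 3 libraries allow, and 0.333 adjusted over the 10 receptor families compared this way. The level of the share depends on the length used: per kb of principal transcript it was 38.4% ± 3.52 in KO and 56.5% ± 8.16 in WT, still without overlap, so that Thra was then the more abundant form in KO. Of 5 listed thyroid hormone target genes, 2 fell and 0 rose by edgeR, 1 was higher at an unadjusted p under 0.05, and DESeq2 called 1 higher and limma-voom 0. Thrsp, the lipogenic gene named for its response to thyroid hormone, was at 7.63 ± 1.95 CPM in KO and 235 ± 186 in WT (log2 fold change -4.95, SE 0.60, adjusted p = 0.00873). Dio1, the deiodinase that turns thyroxine into the active hormone, was at 25.8 ± 8.78 CPM in KO and 116 ± 44.2 in WT (log2 fold change -2.16, adjusted p = 0.0174). Me1 and Klf9, further target genes, did not pass (log2 fold changes -0.51 and -0.34), and nor did the corepressor gene Hr (1.84). The number of these targets called lower was 1 without KO replicate 1 or 3 and 0 without KO replicate 2.

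**Figure D3:**
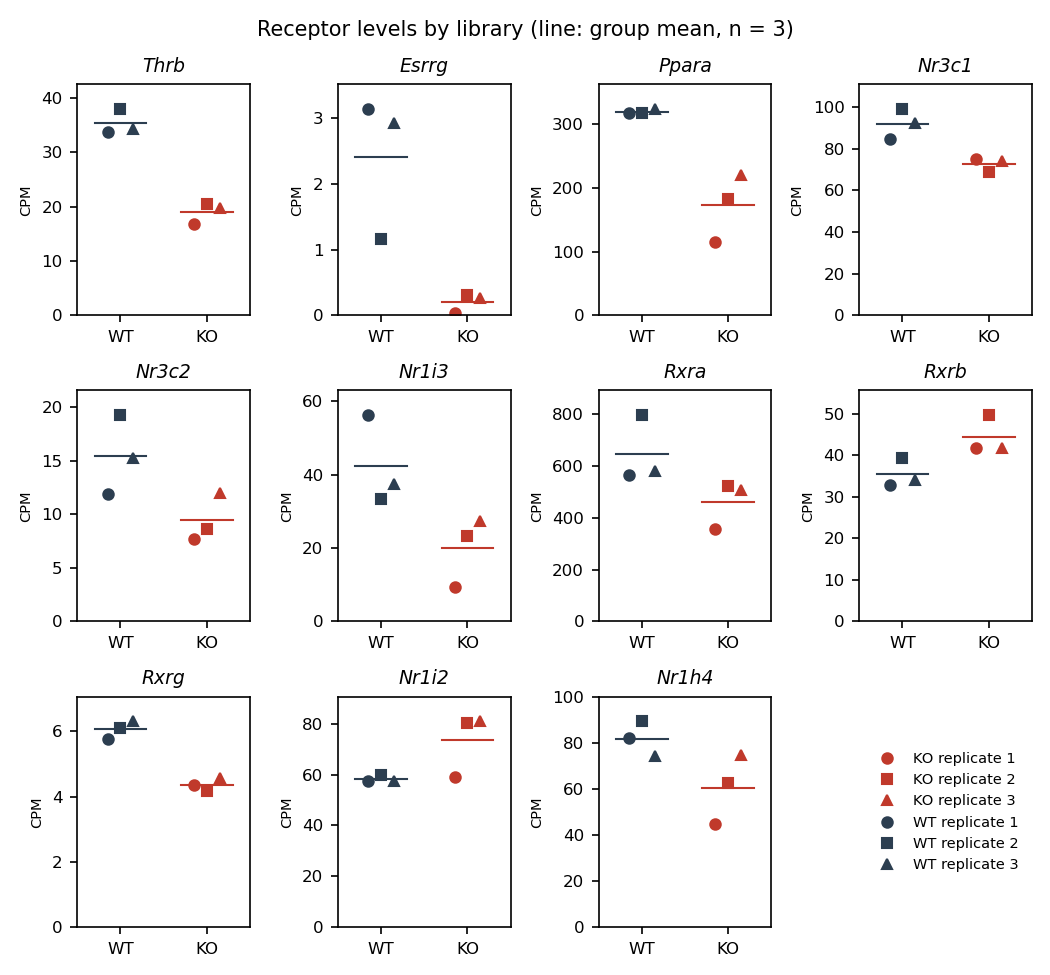
CPM of 11 receptors in each library, with a panel and an axis from 0 for each gene and a line at the group mean (n = 3). Thrb, Esrrg, Ppara, Nr3c1, Nr1i3, Rxra, Rxrg and Rxrb separate the genotypes, while Nr3c2, Nr1i2 and Nr1h4 overlap.

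Peroxisome proliferator-activated receptors (PPARs) are fatty acid sensors that bind DNA with RXR. Ppara (chr15:85734983-85802819), which drives hepatic fatty acid oxidation, was at 116, 183 and 221 CPM in KO and 318, 318 and 323 CPM in WT. The WT libraries were nearly equal and all KO libraries were lower, with KO replicate 1 the lowest. The log2 fold change was -0.88 (SE 0.23), as large as that of Thrb, but with the wider spread among KO libraries the adjusted p was 0.0607; DESeq2 gave 0.00483. Pparg, which favours lipid storage, was at 10.4, 8.49 and 11.4 CPM in KO and 14.4, 8.54 and 23.7 in WT (adjusted p = 0.304). Ppard, the delta form, had a log2 fold change of 0.34 (adjusted p = 0.379).

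Of 18 listed PPAR-alpha targets, 5 rose and 1 fell, and the median log2 fold change was 0.53, while Ppara itself was lower in every KO library. Fgf21, a hepatic hormone gene, was at 33.9 ± 4.6 CPM in KO and 1.14 ± 0.574 in WT (log2 fold change 4.87, SE 0.34, adjusted p = 0.00212). Acot2, a mitochondrial acyl-CoA thioesterase, was at 23.7 ± 3.17 and 2.26 ± 0.547 CPM (log2 fold change 3.38, adjusted p = 0.00183). The omega-hydroxylase gene Cyp4a14 (3.24) and the lipid droplet coat gene Plin2 (1.30) also rose, as did Cyp4a10 (2.67), while the fatty acid carrier gene Fabp1 fell (-1.26). Fgf21 and Acot2 passed in all 14 alternatives. The number called higher was 3 without KO replicate 3 and 2 without KO replicate 2. Leaving out KO replicate 2 ended the call of Plin2, leaving out that library, KO replicate 3 or WT replicate 3 ended that of Cyp4a14, and leaving out any library except WT replicate 1 ended those of Cyp4a10 and Fabp1. Fgf21 and others of these genes also respond to signals other than PPAR-alpha. The oxidation genes Cpt1a (0.50) and Acadm (0.34) did not pass. Of 4 tested PPAR-gamma targets, 0 were called in either direction by edgeR, 2 had an unadjusted p under 0.05, and DESeq2 and limma-voom each called 1 higher.

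**Figure D4:**
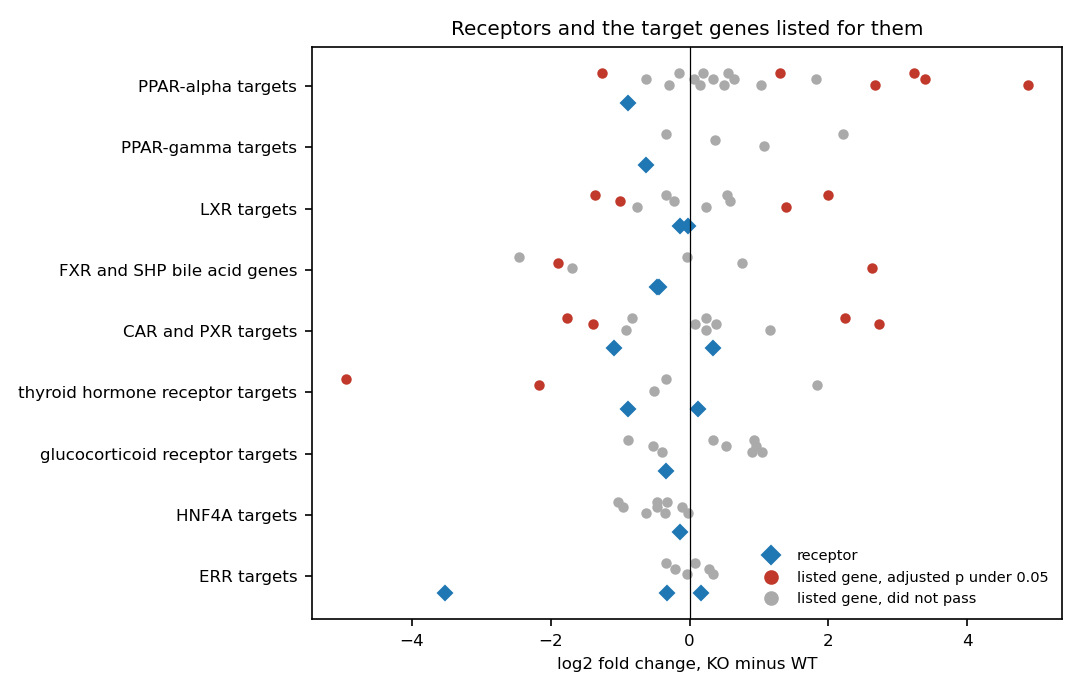
Log2 fold change (KO minus WT) of receptors (blue diamonds) and of the target genes listed for them (circles, red where the adjusted p is under 0.05), 1 row per list. In the PPAR-alpha row the receptor is at -0.88 and 5 red targets are to the right of 0, while in the thyroid hormone row both red targets and Thrb are to the left.

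The RXR genes, shared partners of many receptors, separated the libraries by genotype without passing the threshold. Rxra (chr2:27676440-27762957) was at 359, 522 and 508 CPM in KO and 566, 796 and 579 in WT, so that the groups did not overlap, with KO replicate 1 lowest and WT replicate 2 highest. Its log2 fold change was -0.48 (SE 0.22, adjusted p = 0.214). Rxrb was at 41.6, 49.6 and 41.7 CPM in KO and 32.9, 39.4 and 34.0 in WT, higher in every KO library, with a log2 fold change of 0.32 and an adjusted p of 0.158. Rxrg, the rarest form in liver, was at 4.35, 4.17 and 4.57 CPM in KO and 5.76, 6.10 and 6.30 in WT (log2 fold change -0.47, adjusted p = 0.153). As a share of RXR CPM per kb, Rxra was 84.2%, 87.0% and 88.2% in KO and 90.6%, 92.1% and 90.4% in WT. The shares did not overlap, with means of 86.4% ± 2.06 and 91.0% ± 0.919 (exact permutation p = 0.10, adjusted 0.333). The family shares did not overlap between groups in 3 of 10 families: thyroid hormone receptors, RXRs and estrogen-related receptors. For comparison, the levels of 33.5% of all tested genes did not overlap. The thyroid hormone receptor and estrogen-related receptor shares include Thrb and Esrrg, so they are not independent of those calls.

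Among the sterol and bile acid sensors, no receptor passed. Nr1h4, which encodes FXR, was at 44.6, 62.4 and 74.7 CPM in KO and 82.2, 89.3 and 74.1 in WT; the highest KO library and the lowest WT library were nearly equal (log2 fold change -0.43, SE 0.19, adjusted p = 0.204). Nr0b2, whose SHP protein is induced by FXR and represses bile acid synthesis, was at 23.0, 33.6 and 36.3 CPM in KO and 48.3, 49.8 and 30.0 in WT, which overlap (log2 fold change -0.46, adjusted p = 0.276). Nr5a2 (LRH-1), the activator of bile acid synthesis that SHP restrains, had a log2 fold change of -0.27 (adjusted p = 0.305). Hnf4a was at 500, 537 and 548 CPM in KO and 528, 737 and 477 in WT, with the single high value in WT replicate 2 (log2 fold change -0.14, adjusted p = 0.698, and 0.07 without that library). Nr1h3, encoding LXR-alpha, was at 124, 127 and 127 CPM in KO and 151, 137 and 128 in WT (log2 fold change -0.14, SE 0.11), and Nr1h2, encoding LXR-beta, had a log2 fold change of -0.02. Both LXR values became positive when libraries were scaled by size alone.

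Their listed target genes moved both ways. Of 6 tested FXR and SHP genes, the exporter subunit gene Slc51b rose (4.12 ± 1.01 against 0.655 ± 0.489 CPM, log2 fold change 2.63, adjusted p = 0.0341) and the bile acid uptake transporter gene Slc10a1 fell (85.0 ± 32.1 against 316 ± 152 CPM, log2 fold change -1.90, adjusted p = 0.0428). Slc51a, whose product pairs with that of Slc51b, had 0 counts in every library. Cyp7a1, the rate-limiting enzyme of classical bile acid synthesis, was at 5.41, 16.4 and 54.3 CPM in KO and 56.3, 103 and 88.0 in WT. It did not pass (adjusted p = 0.197), although the groups did not overlap. Of 10 LXR targets, the phospholipid transfer protein gene Pltp (log2 fold change 1.39) and the lipoprotein lipase gene Lpl (2.0) rose, and Srebf1 (-1.0), which encodes the lipogenic factor SREBP-1, and the desaturase gene Scd1 (-1.36) fell. The sterol exporters Abca1 (0.23) and Abcg5 (-0.34) did not pass. Without KO replicate 1, 2 or 3 or WT replicate 3, neither FXR gene was called; no LXR target was called without KO replicate 2. Leaving out KO replicate 1, KO replicate 3 or WT replicate 1 ended the calls of Srebf1 and Scd1, as did leaving out WT replicate 2 for Srebf1 and WT replicate 3 for Scd1, and leaving out KO replicate 3 or WT replicate 3 ended that of Lpl. Srebf1 and Scd1 also lost their calls with library size or upper-quartile scaling, and Scd1 without robust dispersion. Of 9 HNF4A targets, 0 were called by edgeR, 5 had an unadjusted p under 0.05, all lower, and DESeq2 called 4 lower and limma-voom 0; all 9 log2 fold changes were negative.

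The xenobiotic sensors differed from WT in opposite directions, and neither passed. Nr1i3, which encodes the constitutive androstane receptor CAR (chr1:171213970-171220701), was at 9.38, 23.2 and 27.4 CPM in KO and 56.3, 33.4 and 37.5 in WT. The groups did not overlap, and KO replicate 1 was the lowest and WT replicate 1 the highest library. The log2 fold change was -1.08 (SE 0.39, adjusted p = 0.141), and DESeq2 gave 0.0428. The annotation places 3304 of its 4414 exon bases (74.9%) opposite exons of Tomm40l, a mitochondrial import gene, and the strand setting of the counting is not given, so reads of the pair cannot be told apart; Tomm40l itself had a log2 fold change of 0.26 (adjusted p = 0.362). Nr1i2, which encodes the pregnane X receptor PXR, was at 59.2, 80.2 and 80.9 CPM in KO and 57.6, 59.9 and 57.4 in WT, with KO replicate 1 inside the WT range and the other KO libraries above it (log2 fold change 0.33, adjusted p = 0.191; 0.0488 with library size scaling).

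Of 11 CAR and PXR targets, 2 rose and 2 fell. Cyp2b10, the classical CAR target, was at 43.9, 104 and 127 CPM in KO and 16.9, 21.3 and 19.9 in WT, higher in every KO library (log2 fold change 2.24, SE 0.37, adjusted p = 0.0201). In KO, Nr1i3 and Cyp2b10 had the same library order, with replicate 1 lowest in both. In WT the order was opposite, with replicate 1 highest in Nr1i3 and lowest in Cyp2b10. A relation between these levels was not tested. Cyp2c55, also of the cytochrome P450 family, rose by 2.73 on the log2 scale (adjusted p = 0.00612, past the threshold in all 14 alternatives). The P450 gene Cyp2c29 (log2 fold change -1.77) and the carboxylesterase gene Ces2a (-1.39) fell. Cyp3a11, the PXR target in mouse liver, was at 3322, 3332 and 5105 CPM in KO and 2377, 3635 and 3985 in WT, which overlap (log2 fold change 0.23). Genes of the Cyp2b, Cyp2c and Cyp3a families have close copies, and how shared reads were counted is not given. Without KO replicate 2 the list had 1 call higher and 0 lower, without KO replicate 1 it had 1 lower, and without KO replicate 3 or WT replicate 3 it had 1 higher.

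Some steroid receptors, such as the glucocorticoid receptor, wait in the cytoplasm on an HSP90 chaperone complex until hormone arrives. Nr3c1, the glucocorticoid receptor gene, was at 75.1, 69.0 and 74.2 CPM in KO and 84.6, 99.0 and 92.2 in WT. All KO libraries were lower, by a small amount (log2 fold change -0.34, SE 0.11, adjusted p = 0.108; 0.0428 by DESeq2). Nr3c2, the mineralocorticoid receptor gene, was at 7.69, 8.61 and 12 CPM in KO and 11.9, 19.2 and 15.3 in WT, overlapping by the highest KO and the lowest WT library (log2 fold change -0.72, adjusted p = 0.110). The estrogen receptor gene Esr1 was at 14.3 to 23.7 CPM in KO and 9.94 to 23.7 in WT (log2 fold change 0.26, adjusted p = 0.667).

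Of 8 chaperone genes, 2 fell: Fkbp4, the immunophilin that helps move the loaded receptor to the nucleus, at 107 ± 14.5 CPM in KO and 246 ± 31.2 in WT (log2 fold change -1.20, SE 0.16, adjusted p = 0.00911), and Stip1, the organizer that links HSP70 to HSP90 (-0.63, adjusted p = 0.0407). Fkbp5, the immunophilin that lowers hormone affinity, was at 63.9, 85.5 and 132 CPM in KO and 56.4, 41.4 and 46.4 in WT. All KO libraries were higher, but the adjusted p was 0.0732. Without KO replicate 2 neither chaperone was called, and Fkbp4 then had an adjusted p of 0.0659; Stip1 also lost its call without KO replicate 3 or any WT library, and with upper-quartile or library size scaling.

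Of 14 enzymes that make or clear receptor ligands, 6 fell and 0 rose, and the list's median log2 fold change was -1.01; 0 were called higher by DESeq2 and by limma-voom, and 0 had an unadjusted p under 0.05 in that direction. Hsd11b1, which regenerates active glucocorticoid inside the hepatocyte, was at 187, 199 and 213 CPM in KO and 640, 859 and 661 in WT (log2 fold change -1.85, SE 0.17, adjusted p = 0.00421), and it passed in all 14 alternatives. Cyp7b1, which hydroxylates oxysterols, fell by 2.54 on the log2 scale, and Cyp27a1, which forms the oxysterol ligands of LXR, fell by 1.09. Dio1 was given above, and the vitamin D hydroxylase Cyp2r1 (-0.93) and the steroid reductase Srd5a1 (-0.87) completed the list of those that fell. The number called was 2 without KO replicate 1 or 3, 1 without KO replicate 2, 3 without WT replicate 3 and 4 without WT replicate 2. Of 9 glucocorticoid receptor targets, 0 were called by edgeR, 3 had an unadjusted p under 0.05, all higher, and DESeq2 called 2 higher and limma-voom 0.

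Retinoic acid receptors showed little difference between genotypes. Rara was at 20.8, 26.0 and 23.5 CPM in KO and 26.1, 24.6 and 19.5 in WT, a log2 fold change of 0.00 (95% interval -0.36 to 0.36). Rarb (0.10, interval -0.33 to 0.53) and Rarg (0.16, interval -0.28 to 0.60) did not pass either. Cyp26a1, the retinoic acid hydroxylase, was at 8.16, 15.6 and 20.1 CPM in KO and 46.1, 25.2 and 26.7 in WT, with no overlap and an adjusted p of 0.104. Vdr, the vitamin D receptor, was at most 1.36 CPM in any library.

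The REV-ERB receptors spread widely among the WT livers. REV-ERB proteins repress and ROR proteins activate the same elements in clock genes, and both receptor groups cycle with the time of day, which the labels do not give for tissue collection. Nr1d1 was at 79.5, 82.1 and 77.6 CPM in KO but 19.8, 134 and 57.1 in WT, so that the KO libraries all lay inside the WT range (log2 fold change 0.19, interval -1.16 to 1.54). Leaving out WT replicate 1 turned its direction (-0.25). The highest WT library was 6.73 times the lowest, against 1.06 times in KO. Nr1d2 was at 79.8, 96.6 and 86.6 CPM in KO and 71.7, 129 and 109 in WT, with the same WT order (log2 fold change -0.24). Rora, the ROR form of liver, was at 63.3, 57.9 and 68.2 CPM in KO and 61.7, 63.0 and 59.8 in WT (0.04, interval -0.21 to 0.29). The annotation gives Nr1d1 and Thra 263 shared exon bases on opposite strands, so a part of their reads cannot be told apart without the strand setting.

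Of 15 listed clock genes with elements for these receptors or their output factors, 0 were called by edgeR in either direction, 2 were higher and 2 lower at an unadjusted p under 0.05, DESeq2 called 2 higher and 1 lower, and limma-voom called 0. Arntl, which encodes BMAL1, was at 11.5, 4.90 and 5.43 CPM in KO and 3.82, 1.86 and 1.18 in WT, and its partner Npas2 was at 0.845, 0.888 and 0.819 CPM in KO and 0.105, 0.349 and 0.0534 in WT. All KO libraries were higher for both (adjusted p = 0.0952 and 0.0664). Of the 15 genes, 2 did not overlap and were higher in KO (13.3%, beside 16.9% of all genes). A further 4 did not overlap and were lower (26.7%, beside 16.6%). In the whole list 12 of 15 log2 fold changes were negative, with a median of -0.40. Dbp, a clock output factor, was at 49.9, 126 and 109 CPM in KO and 68.4, 189 and 127 in WT, in the WT order of Nr1d1. KO replicate 1 had the lowest KO value of Dbp, Tef, Hlf, Per1, Per2 and Per3 and the highest of Arntl.

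**Figure D5:**
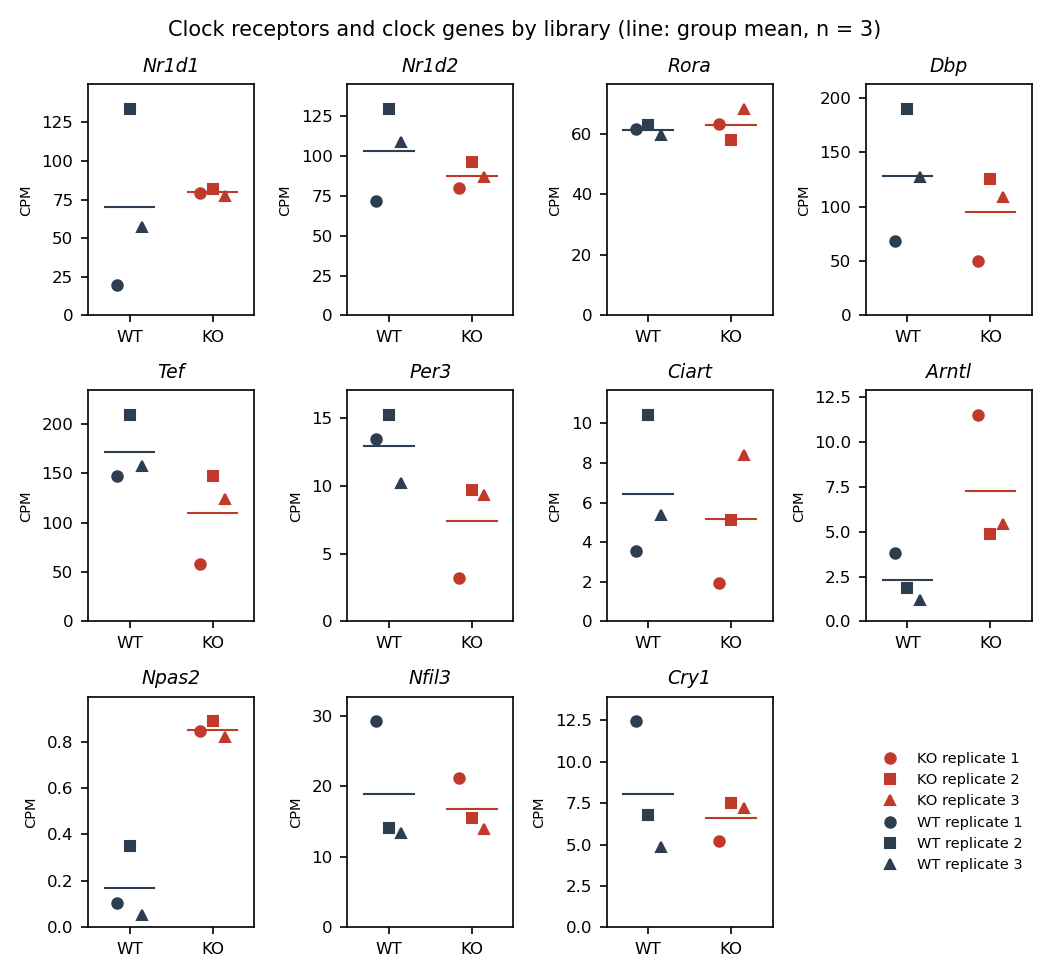
CPM of 3 clock receptors and 8 clock genes in each library, with an axis from 0 and a line at the group mean (n = 3). The KO values of Nr1d1 lie within the WT range, the WT libraries of Nr1d1 and Dbp keep the same order, and the KO values of Arntl and Npas2 lie above all WT values.

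Estrogen-related receptors bind without a known natural hormone and work with the PGC-1 coactivators on mitochondrial genes. Esrrg (chr1:187608791-188214885) was at 0.0423, 0.309 and 0.259 CPM in KO and 3.14, 1.16 and 2.94 in WT, from 1, 8 and 6 counts against 60, 20 and 55. Every WT library was above every KO library. The log2 fold change was -3.52 (SE 0.66, adjusted p = 0.0252), the largest in size among the 37 receptors, with a 95% interval of -5.06 to -1.99. The counts were few and the libraries spread within each group. Their parts in the width of the interval were not tested. Leaving out KO replicate 1, 2 or 3 gave adjusted p-values of 0.0690, 0.0934 and 0.0821, and leaving out WT replicate 3 gave 0.0873. Esrra, the abundant form, was at 25.6, 43.5 and 41.5 CPM in KO and 29.3, 38.9 and 30.0 in WT (log2 fold change 0.17, adjusted p = 0.662), and Esrrb was at 0.905 to 1.62 CPM (-0.32). Esrra was 91.9% ± 3.40 of estrogen-related receptor CPM per kb in WT and 97.2% ± 0.745 in KO, without overlap (exact permutation p = 0.10). Of 6 ERR targets in the tricarboxylic acid cycle, electron transport and fatty acid oxidation, 0 were called by edgeR, DESeq2 or limma-voom, and 1 had an unadjusted p under 0.05.

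The NR4A receptors are immediate early genes that need no ligand. Nr4a1 was at 6.97, 8.57 and 5.64 CPM in KO and 8.22, 1.63 and 4.33 in WT, which overlap (log2 fold change 0.58, interval -0.62 to 1.77), and Nr4a3 was at 0.407 to 1.73 CPM (0.15). Of 8 other immediate early genes, 4 rose: Atf3 (log2 fold change 3.10, adjusted p = 0.0234), Fosb (2.45), Fos (1.82) and Egr1 (1.44). Without KO replicate 2 or WT replicate 3 none of these was called, and 1 was called without KO replicate 3 and 2 without KO replicate 1.

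The remaining orphan receptors stayed within their spread. Nr2f6, a repressor, was at 107, 105 and 103 CPM in KO and 109, 124 and 95.1 in WT (log2 fold change -0.06, interval -0.36 to 0.23). The COUP transcription factor genes Nr2f1 and Nr2f2 had log2 fold changes of 0.62 and -0.14, the testicular receptor genes Nr2c1 and Nr2c2 of 0.21 and -0.19, and the germ cell nuclear factor gene Nr6a1 of -0.38, with adjusted p-values from 0.409 to 0.792 for these 6 genes. By the annotation, 54.4% of the exon bases of Nr2f6 lie opposite those of Ocel1, and 34.1% of Rarb and 30.7% of Nr2c2 lie opposite Top2b and Mrps25; none of these 3 neighbours passed the test.

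Coregulators are the proteins through which the receptors act. Of 24, 2 rose and 0 fell: Pprc1, a relative of the PGC-1 coactivators (10.3 ± 0.583 CPM in WT and 17.6 ± 3.23 in KO, log2 fold change 0.77, adjusted p = 0.0383), and Gps2, a subunit of the NCOR corepressor complex (10.5 ± 0.831 and 15.8 ± 0.813 CPM, 0.59, adjusted p = 0.0428). At an unadjusted p under 0.05, 4 were higher and 0 lower, and DESeq2 called 3 higher and 0 lower and limma-voom 2 and 0. The libraries did not overlap for 6, all higher in KO (beside 16.9% of all genes), while the list's median log2 fold change was -0.03. Ncor1 (-0.03), Ncoa1 (-0.10), Med1 (0.02) and Ppargc1a (-0.09) were among those that did not pass. Gps2 lost its call without any 1 of the 6 libraries, and Pprc1 without any 1 of 5 (every one except WT replicate 2).

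KO replicate 1 recurred as the lowest KO library among the receptors. It held the lowest KO value for 21 of the 37 tested receptors, including Ppara, Rxra, Nr1h4, Nr1i3 and Nr0b2, and the highest for 7. Among WT libraries, replicate 2 held the highest value for 19 receptors. The range among WT libraries was wider than that among KO libraries for 21 of the 37. These counts were not made over all genes, so they cannot be read as a trait of the receptors. KO replicate 1 had the largest scaling factor (TMM) of the 6 libraries, 1.15, and WT replicate 2 the smallest, 0.856. The part of scaling in these counts was not tested.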

How the data were processed

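Liver RNA of 3 Sesn3 KO and 3 WT samples was measured by RNA-seq. The values deposited are raw read counts for each gene symbol in each library. Per the submitters' processing notes, the build was mm10 and the tools included Subread 1.5.3, featureCounts, STAR 2.5 and edgeR 3.20.8. What each did, which annotation was counted and whether strand was used is not given in the sources used here. The test was that of edgeR 4.0.16 under R 4.3.3 (filterByExpr with a minimum count of 10 and a total of 15, TMM factors, robust quasi-likelihood F-test, two-sided), tested on simulated data. SE is the fold change on the log2 scale over the square root of F. CPM values are TMM-scaled; CPM per kb uses union exon length in GENCODE M21 (GRCm38), with 23334 of 24421 symbols (95.5%) matched to 1 gene. DESeq2 1.42.0 and limma 3.58.1 were alternatives, with other scalings, filters and each library left out. Libraries were grouped by the labelled genotype and numbered in accession order. Within groups, the chi-square of counts per degree of freedom was 21.5 to 134 for each pair, above sampling noise.

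The receptors and all lists were chosen with earlier results of these data known. Values in every library were given for receptors called, for those that do not overlap and differ by a log2 fold change of at least 1, and for the 6 most abundant per length; called genes of each list were named, up to 4 by smallest p. Other genes were named after their values were seen. Results for some listed genes are not reported here.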

Additional observations from a re-analysis of the deposited data

How the results depend on the processing

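Calls of receptors rest on few libraries. The number called lower was 2, and 5 with DESeq2 and 0 to 2 with each library left out. It was 1 with a filter of 1 CPM in 3 libraries, which kept 34 receptors and left Esrrg untested. The number called higher was 0, and 2 with library size scaling. The 32 called genes of the pathway lists became 54 with DESeq2 and 4 to 31 with each library left out. The median of the receptors was -0.14, and 0.085 with library size scaling. Among all genes, 435 were called higher and 463 lower, against 707 and 258 with library size scaling, 921 and 1061 with DESeq2, and 48 and 53 without KO replicate 2. Of 37 receptors, 24 had the same sign in every alternative that tested them.

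None of the 13 that changed sign was called in any alternative where it did, and the cause was not tested. With library size scaling the log2 fold change was 0.071 for Nr1h3, 0.193 for Nr1h2, 0.088 for Hnf4a, 0.028 for Nr2c2, 0.085 for Nr2f2 and 0.157 for Nr2f6. Nr1h2 was at 0.038 with upper-quartile factors, and Rara at -0.0047 with RLE factors and -0.0046 with DESeq2. With libraries left out, Thra ranged from -0.105 to 0.441, Rara from -0.107 to 0.096, Rarg from -0.0053 to 0.287, Nr1d1 from -0.246 to 1.05, Rora from -0.021 to 0.097, Nr1h2 from -0.046 to 0.052, Hnf4a from -0.252 to 0.073, Nr2f2 from -0.353 to 0.184, Nr2f6 from -0.149 to 0.036, Nr4a3 from -0.456 to 0.513 and Nr6a1 from -0.629 to 0.048. In alternatives added after seeing the data, other lengths moved the levels of the shares within families (Thrb in WT from 56.5% to 77.9%), while each KO minus WT difference moved by less than the spread between libraries and the same 3 families did not overlap. No paired analysis was possible because the labels give no replicate numbers that pair KO and WT samples.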
